A study of Mus musculus with 6 samples.

Results

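The 49 genes described here are interferon-stimulated antiviral genes of the mouse, taken by name from the 28987 gene rows of the deposited expression table. All 49 had a row. Each reached at least 1 TPM (an abundance scaled to transcript length and library total) in all 6 libraries, from 1.44 TPM for Mx2 to 1028 TPM for Ifitm3, so all 49 passed the filter on low values. They were read in 10 groups by role: Isg15 and its conjugation (4 genes), the Ifit family (4), the Oas family (6), the Mx GTPases (2), the Ifitm family (3), nucleic acid sensors and binders (7), transcription factors and their partners (6), Parp9 and relatives (3), surface and secreted proteins (4), and other effectors (10).

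Type I and type III interferons bind cell surface receptors whose kinases, JAK1 and TYK2, switch on the transcription factor complex ISGF3, which includes STAT2 and IRF9. ISGF3 binds a promoter element built of repeated GAAA units, the interferon-stimulated response element. The induced proteins sense viral nucleic acids, block the entry, translation or copying of viral genomes, or tune the pathway itself, and blood-forming cells express many of them at a baseline level without infection.

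The study measured RNA from bone marrow of C57BL/6 mice with mutant CBL and RUNX1, which model myelodysplastic syndrome, a clonal disorder of blood formation. Mice received vehicle or Mdivi-1, a small molecule used to inhibit Drp1, the GTPase that divides mitochondria. Sorted mutant cells were of 2 kinds: HSCPs (haematopoietic stem and progenitor cells enriched on CD117, the product of Kit) and myeloid cells carrying the neutrophil surface protein Ly6G. There were 1 HSCP vehicle, 1 HSCP Mdivi-1, 2 Ly6G+ vehicle and 2 Ly6G+ Mdivi-1 libraries, all 4 groups from mutant cells with no wild-type group, and no source used here gives the ages, the dose, its length or the way the mutations were introduced.

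Kit stood at 72.2 and 64.9 TPM in the HSCP libraries and at 8.73 to 14.1 TPM in the Ly6G+ libraries, and Ly6g at 187 and 90.1 TPM against 642 to 840 TPM. Transcripts of 12 neutrophil maturation genes also made up 95687 summed TPM in the HSCP vehicle library and 86524 in the HSCP Mdivi-1 library, against 255960 to 266400 in the Ly6G+ libraries. In such bulk samples, fewer cells of a type and less RNA per cell cannot be told apart. TPM values keep no read depth, so the depth behind them is unknown. The labels speak of individual mice but do not say which mouse gave which library, so the spread behind each p-value is that between these libraries and may be technical.

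The first 6 promoter stretches below were picked because they hold a match to the element through which interferon acts: they are those with the largest changes in Ly6G+ cells among matching members of the Ifit, Oas, Mx and Ifitm families and Isg15, Rsad2, Cxcl10 and Irf7. Ifi44, Ifit2 and Xaf1, which changed more than Isg15 and Ifit1, had no match in their windows and are not shown. Ifi44 and Xaf1 are also outside the genes from which the stretches were picked. Mx1 and Usp18, which changed more than Isg15, had no window and could not be searched. The search looked for GAAANNGAAA, or TTTCNNTTTC when the match lies on the other strand, in RefSeq windows of 300 bases (250 before to 50 after the start, build GRCm38.p6), with overlapping matches allowed. Of 37 members with a window, 19 (51.4%) held at least 1 match, against 1079 of 27025 genes (4.0%) and 1131 of 32851 windows (3.4%) overall. Each line below runs 5′ to 3′ on the gene's own strand with every match in capitals: Cxcl10 at chr5:92349068-92349127 (minus strand), Ifit3 at chr19:34583348-34583441 (plus), Oas1g at chr5:120887591-120887656 (minus), Ifit3b at chr19:34607744-34607837 (plus), Ifit1 at chr19:34640760-34640838 (plus) and Isg15 at chr4:156200850-156200921 (minus).
Cxcl10: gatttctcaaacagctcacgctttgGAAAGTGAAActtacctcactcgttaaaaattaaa
Ifit3: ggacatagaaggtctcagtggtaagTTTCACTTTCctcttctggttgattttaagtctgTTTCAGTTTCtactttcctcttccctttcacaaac
Oas1g: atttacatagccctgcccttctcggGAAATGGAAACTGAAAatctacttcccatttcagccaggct
Ifit3b: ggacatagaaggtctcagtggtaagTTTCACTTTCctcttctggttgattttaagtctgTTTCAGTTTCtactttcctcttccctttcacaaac
Ifit1: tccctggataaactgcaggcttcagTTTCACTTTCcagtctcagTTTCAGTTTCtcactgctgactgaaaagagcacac
Isg15: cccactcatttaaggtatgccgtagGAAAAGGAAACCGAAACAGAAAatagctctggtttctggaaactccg
The printed stretches of Ifit3 and Ifit3b were the same at all 94 bases, with 2 matches each. In Oas1g and Isg15 the matches overlap, 2 in the first and 3 in the second.

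The Ifitm genes lie side by side on chromosome 7 and moved in different directions, so their stretches are set together: Ifitm3 at chr7:141010715-141010767 (minus), Ifitm2 at chr7:140955973-140956032 (minus) and Ifitm1 at chr7:140967956-140968105 (plus). Ifitm2 and Ifitm3 were added after their values were seen. In Ifitm1, which had no match in its window, the capitals mark the 2 single GAAA units found there.
Ifitm3: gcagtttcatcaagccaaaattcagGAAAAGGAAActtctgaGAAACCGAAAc
Ifitm2: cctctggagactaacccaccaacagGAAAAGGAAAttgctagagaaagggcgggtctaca
Ifitm1: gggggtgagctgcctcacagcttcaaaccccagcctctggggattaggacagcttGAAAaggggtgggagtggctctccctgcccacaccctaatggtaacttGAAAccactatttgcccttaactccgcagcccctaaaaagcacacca
The GENCODE M21 annotation starts the Ifitm1 gene at position 140967221, upstream of this RefSeq window.

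The 49 genes together held 3853 TPM in the HSCP vehicle library and 3207 TPM in the HSCP Mdivi-1 library. In Ly6G+ cells their sum was 6039 and 6161 TPM with vehicle and 5141 and 4875 TPM with Mdivi-1, so both treated libraries were below both vehicle libraries. A few abundant genes carried much of these sums: Ifitm2, Ifitm3 and Ly6e made up 51.0% and 56.4% of the members' TPM in the HSCP libraries and 33.8% to 38.0% in the Ly6G+ libraries. Without the 3 Ifitm genes and Ly6e, the sum was 1874 and 1391 TPM in HSCPs, 3976 and 4043 TPM in vehicle Ly6G+ cells and 3140 and 3030 TPM in treated Ly6G+ cells.

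In Ly6G+ cells, 23 of the 49 genes fell with Mdivi-1 and 1, Ifitm1, rose, while 25 did not pass the test (limma on log2(TPM + 1), Benjamini-Hochberg adjusted p under 0.05). The largest falls were those of Ifi44, Cxcl10, Ifit3, Mx1 and Oas1g. Across all 11775 genes tested, 4.24% were called lower and 2.46% higher. The members' median log2 change was -0.37, against -0.05 for all genes, and 45 of 49 members lay below 0, against 59.3% of all genes. Both treated libraries were below both vehicle libraries in 42 members (85.7%), against 36.7% of all genes, and above them in 4 (8.16%, against 20.98%). Markers of B cells, megakaryocytes and basophils fell in the same libraries, by 9 of 10, 9 of 10 and 6 of 7 genes tested, and their part in the members' changes was not tested.
With 2 libraries per arm the calls rest on each library: without vehicle replicate 1 only Ifit3 of the 23 passed, without vehicle replicate 2 limma called 0, and without either Mdivi-1 replicate 13 passed. The spread of these fits comes from 1 arm and is assumed to hold for the lone library of the other. In the same order, the members' median log2 change in these fits was -0.42, -0.35, -0.43 and -0.38. For all genes it was -0.06, -0.04, -0.06 and -0.04. The calls over all genes also became fewer without 1 library. All 23 members stayed below 0 in each of these fits, an outcome fixed in advance. In each of the 23, both treated libraries lay below both vehicle libraries, so leaving out 1 library could not turn a sign. Higher calls were 36.8% of all calls; median-of-ratios scaling moved this to 51.9% and upper-quartile scaling to 41.9%, and the members' median minus that of all genes was -0.31, -0.32 and -0.31.

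**Figure D1:**
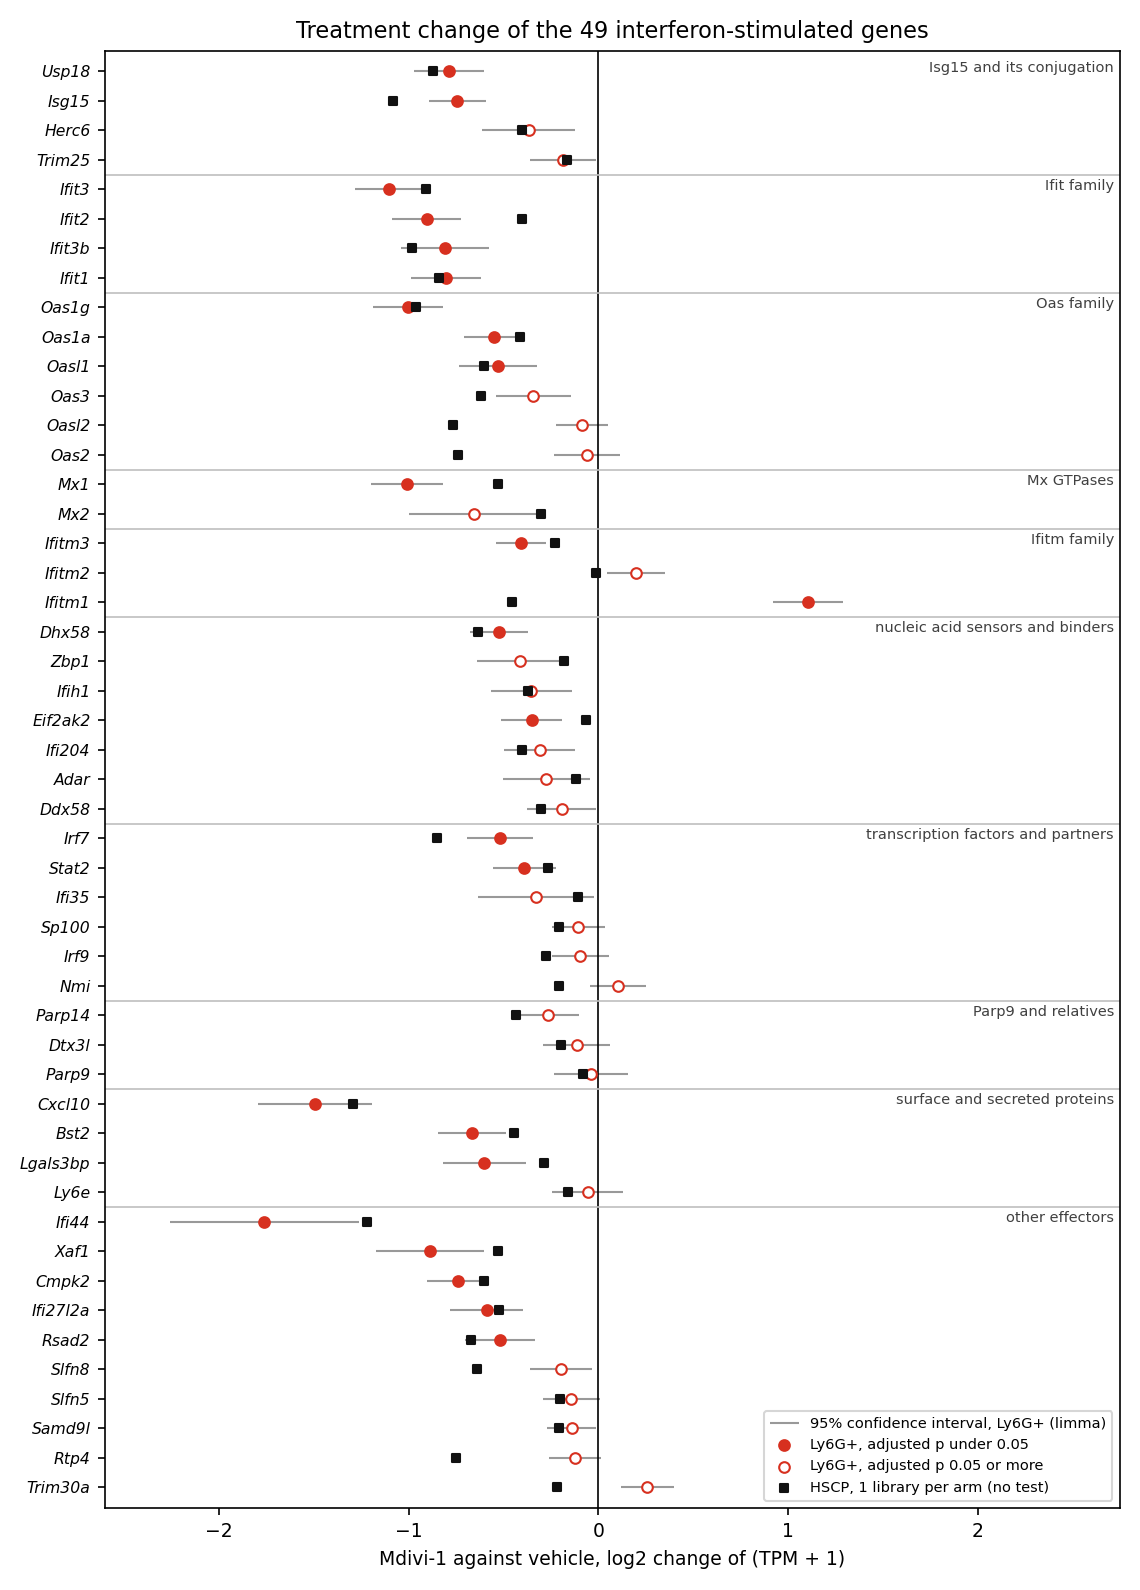
Log2 change of (TPM + 1) with Mdivi-1 against vehicle for each of the 49 genes, grouped by role. Circles are Ly6G+ cells (2 against 2 libraries, filled where the adjusted p was under 0.05, lines are 95% confidence intervals from limma), squares are HSCPs (1 against 1 library, no test). Most symbols lie left of 0 and Ifitm1 in Ly6G+ cells lies at 1.10.

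Among the components that carry the signal, STAT2 and IRF9 are parts of ISGF3, and IRF7 drives interferon alpha genes. Irf7 was at 149 and 166 TPM in the vehicle Ly6G+ libraries and at 109 and 110 TPM in the treated ones, a fall of 0.52 ± 0.07 (SE) on the log2 scale (adjusted p = 0.0232). Stat2 went from 41.7 and 44.2 TPM to 32.7 and 32.3 TPM (-0.39 ± 0.07, adjusted p = 0.0379). In both genes the arms did not overlap. Irf9 did not pass: 85.3 and 90.3 TPM against 81.8 and 82.5 TPM (-0.09, adjusted p = 0.376). Of their partners, Nmi stood at 46.5 TPM in both vehicle libraries and at 49.6 and 50.6 TPM with Mdivi-1 (0.11, adjusted p = 0.325), Ifi35 at 42.3 and 50.7 against 39.5 and 34.1 TPM (-0.33, adjusted p = 0.176), and the nuclear body protein gene Sp100 at 418 and 444 against 406 and 395 TPM (-0.11, adjusted p = 0.297).

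The nucleic acid sensors all had values below 0, from -0.52 to -0.19, and 2 of 7 passed. Dhx58 encodes LGP2, a partner of the RNA sensors RIG-I and MDA5. It stood at 55.4 and 57.4 TPM with vehicle and at 39.0 and 38.9 TPM with Mdivi-1 (-0.52 ± 0.06, adjusted p = 0.0167). Eif2ak2, the double-stranded RNA kinase PKR that halts translation, went from 47.9 and 47.0 TPM to 37.8 and 36.2 TPM (-0.35 ± 0.06, adjusted p = 0.0428). Zbp1, a sensor of Z-form nucleic acids, had the highest mean of the group and did not pass: 98.2 and 113 TPM against 82.2 and 76.0 TPM (-0.41, adjusted p = 0.0661). The genes of the RNA sensors themselves, Ifih1 (MDA5) at -0.35 and Ddx58 (RIG-I) at -0.19, also missed the threshold (adjusted p = 0.0766 and 0.175).

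All 4 Ifit genes, whose products bind viral RNA and block its translation, fell in Ly6G+ cells. Ifit3 was at 62.4 and 68.0 TPM in the vehicle libraries and at 30.1 and 29.5 TPM in the treated ones (-1.10 ± 0.07, adjusted p = 0.00506). Ifit2 went from 28.9 and 29.2 TPM to 15.4 and 14.7 TPM (-0.91 ± 0.07, adjusted p = 0.00645), and Ifit1 from 32.1 and 30.2 TPM to 17.3 and 17.6 TPM (-0.80 ± 0.07, adjusted p = 0.00929). Ifit3b, a near copy of Ifit3, went from 19.3 and 18.2 TPM to 9.78 and 10.8 TPM (-0.81 ± 0.09, adjusted p = 0.0161). No treated library reached a vehicle library in any of the 4. Only 38.2% of the 31-base words of Ifit3 transcripts and 44.7% of those of Ifit3b occur in no other gene, so how reads were divided between this pair is uncertain.

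Isg15, a ubiquitin-like protein attached to other proteins, and Usp18, the protease that removes it and dampens the receptor, fell together. Isg15 stood at 75.2 and 72.3 TPM with vehicle and at 43.4 and 44.0 TPM with Mdivi-1 (-0.74 ± 0.06, adjusted p = 0.00686). Usp18 stood at 33.9 and 34.3 TPM with vehicle and at 20.0 and 18.7 TPM with Mdivi-1 (-0.79 ± 0.07, adjusted p = 0.00956). The ligase genes Herc6 (-0.37, adjusted p = 0.0929) and Trim25 (-0.19, adjusted p = 0.173) did not pass.

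The Oas family, enzymes that answer double-stranded RNA by making 2′-5′ oligoadenylate, split by member. Oas1g went from 48.3 and 49.4 TPM to 24.9 and 22.9 TPM (-1.003 ± 0.07, adjusted p = 0.00562), and its close relative Oas1a from 81.3 and 76.9 TPM to 52.8 and 54.6 TPM (-0.55 ± 0.06, adjusted p = 0.0163). Oasl1, which lacks the enzyme activity, went from 22.4 and 21.005 TPM to 15.1 and 14.4 TPM (-0.53 ± 0.08, adjusted p = 0.031). These 3 fell, and their arms did not overlap.
The other three did not pass. Oas3 stood at 116 TPM in both vehicle libraries and at 97.2 and 85.7 TPM with Mdivi-1 (-0.34, adjusted p = 0.0698). Oasl2 stood at 164 and 171 against 160 and 156 TPM (-0.08, adjusted p = 0.387). Oas2 overlapped between the arms, at 54.6 and 55.2 against 50.5 and 55.0 TPM (-0.06, adjusted p = 0.638). Oas1a and Oas1g shared many sequence words (31.2% and 44.9% unique), so the size of each fall is uncertain.

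Mx1 encodes a GTPase that traps viral ribonucleoproteins, and C57BL/6 mice carry a defective allele of it. Its transcript was at 33.3 and 34.3 TPM with vehicle and at 15.7 and 16.9 TPM with Mdivi-1 (-1.01 ± 0.07, adjusted p = 0.00589). Its neighbour Mx2, which GENCODE lists as a polymorphic pseudogene, was low, at 3.83 and 4.15 against 2.14 and 2.20 TPM (-0.65, adjusted p = 0.0593).

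The Ifitm genes encode small membrane proteins that keep viruses from fusing with endosomes, and these neighbours differed. Ifitm3 was at 1005 and 1028 TPM with vehicle and at 789 and 743 TPM with Mdivi-1 (-0.41 ± 0.05, adjusted p = 0.0218). Ifitm1, at 21.1 and 21.3 TPM with vehicle, stood at 48.7 and 44.8 TPM with Mdivi-1 (1.10 ± 0.07, adjusted p = 0.00515). It was the only member that rose in the fit of the values as deposited, and leaving out either vehicle replicate took its adjusted p to 0.0676 and 0.0636. Ifitm2 stood at 502 and 530 against 613 and 572 TPM, with no overlap between the arms, and did not pass (0.20, adjusted p = 0.123). Only 44.5% of the 31-base words of Ifitm2 occur in no other gene, against 79.5% for Ifitm3 and 88.4% for Ifitm1.

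**Figure D2:**
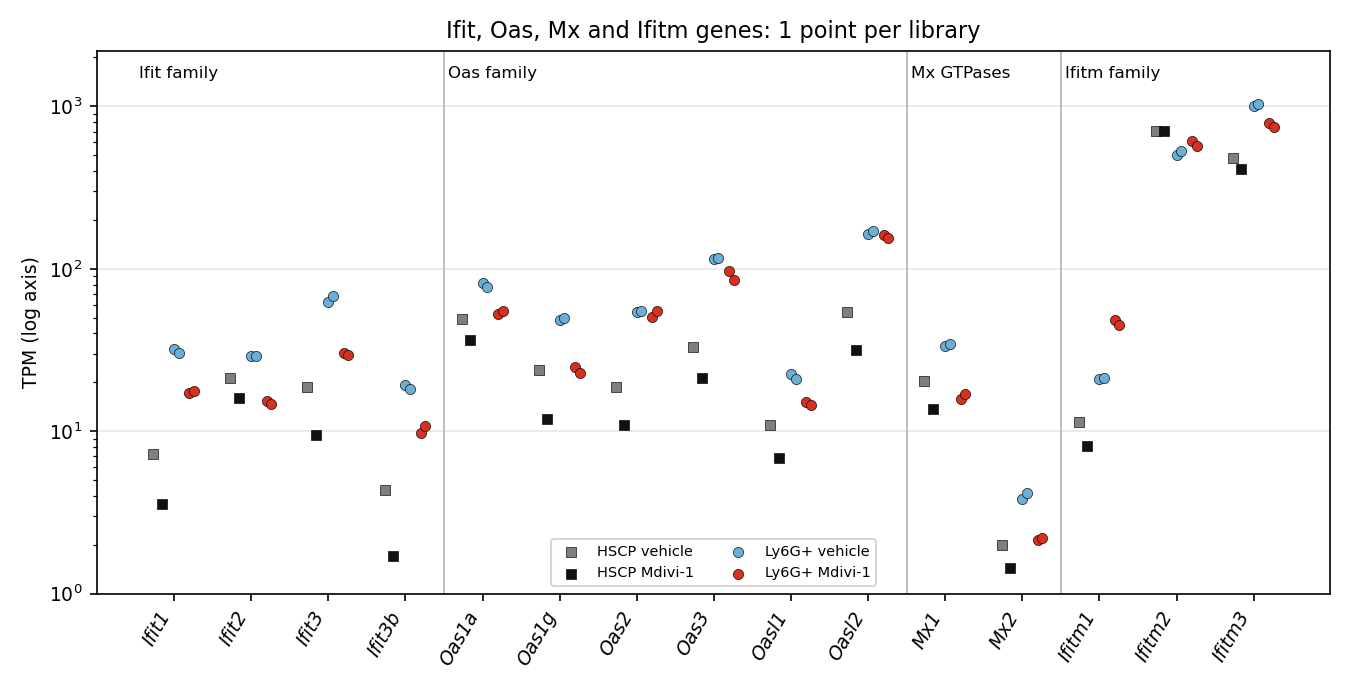
TPM on a log axis for the Ifit, Oas, Mx and Ifitm genes, 1 point per library (squares HSCP, circles Ly6G+). In Ly6G+ cells the treated points lie below the vehicle points for all 4 Ifit genes and for Mx1, whereas for Ifitm1 they lie above, at 48.7 and 44.8 TPM against 21.1 and 21.3 TPM.

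Of the surface and secreted proteins, 3 of 4 fell. Cxcl10, a chemokine that draws T cells, stood at 12.96 and 11.2 TPM with vehicle and at 3.75 and 3.54 TPM with Mdivi-1 (-1.49 ± 0.12, adjusted p = 0.00652). Bst2, the tether that holds budding virus at the cell surface, went from 108 and 120 TPM to 71.8 and 71.2 TPM (-0.66 ± 0.07, adjusted p = 0.0134), and Lgals3bp from 86.3 and 94.1 TPM to 62.8 and 55.6 TPM (-0.60 ± 0.09, adjusted p = 0.0276). Ly6e, the most abundant of the group, overlapped between arms at 535 and 539 against 550 and 485 TPM (-0.06, adjusted p = 0.676).

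Of the other effectors, 5 of 10 fell. Ifi44 had the lowest value of all members, from 10.5 and 7.59 TPM to 1.68 and 2.21 TPM (-1.76 ± 0.19, adjusted p = 0.0152), a fall at low abundance. Xaf1, which promotes cell death, went from 64.0 and 58.5 TPM to 35.9 and 29.6 TPM (-0.89 ± 0.11, adjusted p = 0.0208). Ifi27l2a, the most abundant effector, went from 914 and 893 TPM to 641 and 562 TPM (-0.59 ± 0.07, adjusted p = 0.0218). Cmpk2, a mitochondrial nucleotide kinase, and its chromosome 12 neighbour Rsad2, the antiviral enzyme viperin, fell by 0.74 and 0.52 (adjusted p = 0.0088 and 0.0268).
Trim30a, a brake on Toll-like receptor signalling, stood higher with Mdivi-1 in both libraries, at 133 and 132 TPM against 114 and 108 TPM, but did not pass (0.26, adjusted p = 0.0624, and 0.0431 after median-of-ratios scaling). Rtp4 (-0.12), Samd9l (-0.14), whose human counterpart is mutated in familial myelodysplasia, Slfn5 (-0.14) and Slfn8 (-0.20) did not pass. Parp9, Dtx3l and Parp14, enzymes of ADP-ribosylation and ubiquitin transfer, did not pass either, with values from -0.26 to -0.04; Dtx3l, the highest of them on average, stood at 40.7 and 38.4 against 37.5 and 35.5 TPM.

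The promoter match described earlier was present in 12 of the 19 members with a window that fell in Ly6G+ cells (63.2%) and in 7 of the 17 that did not pass (41.2%). Cmpk2, Ifit2, Irf7, Oasl1, Lgals3bp, Ifi44 and Xaf1 fell and held no match in their windows. Oas3, Ifih1, Ddx58, Ifitm2, Trim30a, Slfn5 and Slfn8 held one and did not pass. These counts are a description of the windows and were not tested.

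Members also share position: 22 of them lie in 8 clusters with gaps of at most 200 kb. At the Ifit cluster (chr19:34550694-34650009) all 4 members fell. Ifit1bl1, a gene inside it that is not a member, went from 10.1 and 9.74 TPM to 4.63 and 5.22 TPM (-0.88, adjusted p = 0.0195), while Ifit1bl2 was low and did not pass (-0.31, adjusted p = 0.337). At the Oas cluster (chr5:120730333-120907521), Oas1a and Oas1g fell and Oas2 and Oas3 did not pass, nor did Oas1c, which is no member (-0.02, adjusted p = 0.924). The Ifitm cluster (chr7:140954837-141010770) held the fall of Ifitm3 and the rise of Ifitm1 within 55934 bases.

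In HSCPs all 49 members were lower in the Mdivi-1 library than in the vehicle library, a comparison of 1 library with 1 that has no replicate check. Among the 46 members with a mean of at least 5 TPM, 16 were lower by at least 1.5-fold on the (TPM + 1) scale and 0 higher. Over all 9482 genes with that mean, 2.45% were lower and 1.32% higher by that fold, and 42.7% were lower by any amount. The members' median was -0.41 on the log2 scale, against 0.03 for all genes. With a pseudocount of 5 TPM, 9 members were past the fold. Cell markers moved in the same library: Ly6g was at 187 TPM with vehicle and 90.1 TPM with Mdivi-1, 10 of 11 neutrophil maturation genes were below 0, and 8 of 8 megakaryocyte and 3 of 4 B cell genes were lower past the fold. Their part in the members' differences was not tested.

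Among these 46, the largest differences in HSCPs were those of Cxcl10, at 9.01 TPM with vehicle and 3.09 TPM with Mdivi-1 (-1.29), and Isg15, at 44.9 and 20.6 TPM (-1.08). Oas1g was at 23.96 and 11.8 TPM (-0.96), Ifit3 at 18.8 and 9.54 TPM (-0.91), Usp18 at 15.6 and 8.04 TPM (-0.87), Irf7 at 88.0 and 48.4 TPM (-0.85) and Ifit1 at 7.19 and 3.58 TPM (-0.84). In the Oas family 5 of 6 were past the fold: Oas1g, Oasl2 (54.3 and 31.6 TPM, -0.76), Oas2 (18.8 and 10.9 TPM, -0.74), Oas3 (33.0 and 21.1 TPM, -0.62) and Oasl1 (10.9 and 6.87 TPM, -0.60). Oas1a, at 48.8 and 36.5 TPM, was at -0.41.
Ifitm2 was at 707 and 702 TPM (-0.01), the smallest difference of the 46. Ifitm3 was at 479 and 409 TPM (-0.23), Ifitm1 at 11.4 and 8.08 TPM (-0.46), Ifit2 at 21.3 and 15.9 TPM (-0.40) and Mx1 at 20.2 and 13.7 TPM (-0.53), none past the fold. The remaining transcription factor genes were at 25.2 and 20.8 TPM for Stat2, 55.1 and 45.4 TPM for Irf9, 39.5 and 34.1 TPM for Nmi, 44.8 and 41.5 TPM for Ifi35 and 186 and 162 TPM for Sp100. Under the mean of 5 TPM lay Ifi44 (6.95 and 2.41 TPM), Ifit3b (4.35 and 1.71 TPM) and Mx2 (2.01 and 1.44 TPM).

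Reading both populations together, 11 members were lower in both by these rules: Cmpk2, Cxcl10, Dhx58, Ifit1, Ifit3, Irf7, Isg15, Oas1g, Oasl1, Rsad2 and Usp18. Oas2, Oas3, Oasl2, Rtp4 and Slfn8 passed the fold in HSCPs and missed the test in Ly6G+ cells. Bst2, Eif2ak2, Ifi27l2a, Ifit2, Ifitm3, Lgals3bp, Mx1, Oas1a, Stat2 and Xaf1 did the reverse. The matching shares of all genes were not computed, so these lists have no background to be read against. Across the 46 members the changes in the populations had Pearson's r of 0.568 and Spearman's rho of 0.553, and without Ifitm1 0.667 and 0.583. Over 9461 genes these were 0.257 and 0.286. The members are not independent points, since neighbours in a family share sequence and each population's changes rest on the same libraries.

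The difference between the treatment changes was tested in one fit with 4 group means. limma called 0.0% of 12338 genes lower and 0.0% higher in this contrast, and so 0 members, while 1398 genes and 12 members had an unadjusted p under 0.05. The spread comes from the Ly6G+ arms alone, and the lone HSCP libraries are assumed to vary like them. Ifitm1 had the smallest p, with a difference of 1.56 on the log2 scale (adjusted p = 0.106). It was followed by Oasl2 (0.68, adjusted p = 0.155), Rtp4 (0.63, adjusted p = 0.179) and Oas2 (0.68, adjusted p = 0.225), whose HSCP values were the lower. Ifit2 (-0.50, adjusted p = 0.309) and Mx1 (-0.48, adjusted p = 0.338) lay on the other side, with the lower value in Ly6G+ cells. None of these contrasts held after adjustment.

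**Figure D3:**
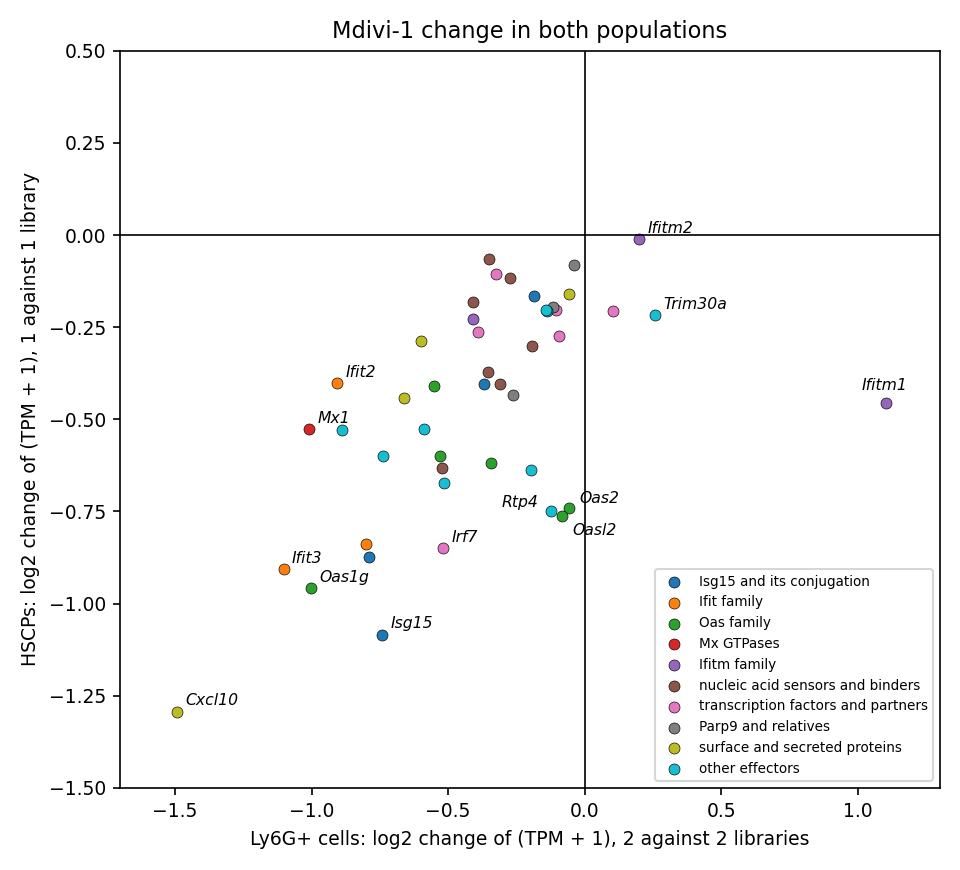
Log2 change of (TPM + 1) with Mdivi-1 in Ly6G+ cells (horizontal, 2 against 2 libraries) and in HSCPs (vertical, 1 against 1 library) for the 46 members with a mean of at least 5 TPM in HSCPs, coloured by role. All points lie below 0 on the vertical axis, Ifitm1 stands apart at 1.10 and -0.46, and Oas2, Oasl2 and Rtp4 lie near 0 on the horizontal axis only.

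Between the populations, most members were higher in Ly6G+ cells. With treatment as a term over all 6 libraries, 40 members were higher, 4 lower and 5 not past the threshold, whereas of 12338 genes 22.2% were higher and 50.3% lower. Of all calls 30.6% were higher, a share that median-of-ratios scaling moved to 48.8% and upper-quartile scaling to 41.5%. The median of all genes was -0.35, -0.03 and -0.15 in these scalings, and the members' median lay 1.31, 1.33 and 1.32 above it. The HSCP side holds 1 library of each treatment.

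The largest differences belonged to effectors. Rtp4, a chaperone of receptor transport that restrains some RNA viruses, was at 29.9 and 17.4 TPM in HSCPs and at 115 to 128 TPM in Ly6G+ cells (2.37 ± 0.14, adjusted p = 2.19e-05). Samd9l was at 27.4 and 23.7 TPM against 113 to 125 TPM (2.18 ± 0.06, adjusted p = 6.92e-06). Rsad2 stood at 10.97 and 6.505 TPM against 31.2 to 47.6 TPM (2.09 ± 0.08, adjusted p = 8.12e-06). Ifi27l2a (1.995), Ifit1 (1.99), Ifit3b (1.97), Oasl2 (1.95), Oas3 (1.92) and Oas2 (1.84) followed, and none of their HSCP libraries reached a Ly6G+ library.
The 4 lower members were Lgals3bp (-0.88), Bst2 (-0.67), Ly6e (-0.49) and Ifitm2 (-0.35), so 3 of the 4 surface and secreted proteins were higher in HSCPs. Ly6e was at 780 and 698 TPM in HSCPs and at 485 to 550 TPM in Ly6G+ cells (adjusted p = 0.00076), and Bst2 at 169 and 124 TPM against 71.2 to 120 TPM (adjusted p = 0.00031). After median-of-ratios scaling Ly6e was at -0.12 (adjusted p = 0.185) and Ifitm2 at 0.015, which left 2 lower members. Ifit2, Adar, Ifi35, Cxcl10 and Ifi44 did not pass. After median-of-ratios scaling limma called Ifit2 (0.521), Adar (0.575), Cxcl10 (0.584) and Ifi35 (0.293) higher. The higher members were then 44, and 43 with upper-quartile scaling. In Isg15, Oas1g, Mx1 and Xaf1, which passed, a vehicle HSCP value lay within the range of the Ly6G+ libraries.

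**Figure D4:**
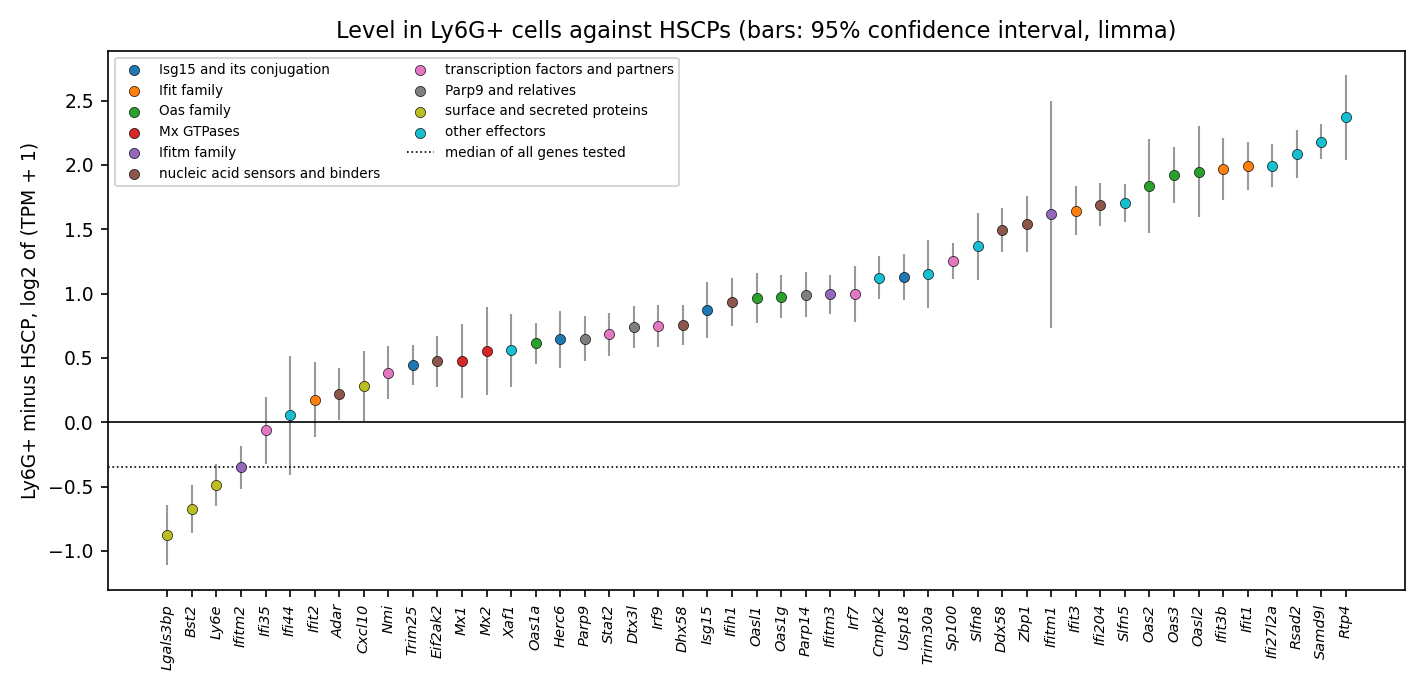
Difference in log2(TPM + 1) between Ly6G+ cells and HSCPs for each member, in rising order, with 95% confidence intervals from limma over all 6 libraries. Most points lie above 0, from Lgals3bp at -0.88 to Rtp4 at 2.37, and the dotted line marks the median of all genes tested, -0.35.

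Among pathway genes outside the 49, the interferon genes themselves were near or at 0. Of 19 listed type I and III genes 10 had a row: Ifnb1 was listed at 0 in every library, and the only values above 0 were 0.0734 TPM for Ifna2 in a treated Ly6G+ library and 0.218 TPM for Ifnk in a vehicle one. Ifng was at 0.181 TPM in 1 treated Ly6G+ library and listed at 0 in the others. None of the 6 receptor genes passed in Ly6G+ cells. Ifnar1 stood at 44.3 and 45.4 TPM with vehicle and at 44.7 and 44.5 TPM with Mdivi-1 (-0.01, adjusted p = 0.957), and Ifnar2 at 110 and 119 against 111 and 99.4 TPM (-0.12, adjusted p = 0.402).

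Of the receptor kinase genes, Jak1 (0.25, adjusted p = 0.0805) and Tyk2 (-0.18, adjusted p = 0.197) did not pass. Irf8, a factor of monocyte and dendritic cell development, was the 1 of 5 other interferon regulatory factors that passed, at 101 and 106 against 69.9 and 66.1 TPM (-0.59 ± 0.06, adjusted p = 0.0134). Of 13 sensing genes upstream of interferon, 1 passed: Tlr9, an endosomal DNA receptor, at 11.7 and 10.9 against 5.01 and 5.41 TPM (-0.99 ± 0.10, adjusted p = 0.0131), and at 9.04 and 4.82 TPM in HSCPs.
Of 7 negative regulators, Socs3, a feedback inhibitor of JAK signalling, rose from 5.93 and 8.98 TPM to 32.3 and 30.3 TPM (1.96 ± 0.18, adjusted p = 0.01) and was at 2.14 and 8.60 TPM in HSCPs. Its relative Socs1 stood at 4.997 and 6.43 against 3.22 and 1.84 TPM and did not pass (-0.95, adjusted p = 0.0871).

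The marker lists of other bone marrow cells moved as follows. In Ly6G+ cells the sum of the 10 B cell genes went from 146 and 148 TPM to 23.6 and 24.5 TPM, and that of the 10 megakaryocyte genes from 287 and 283 to 130 and 115 TPM. Of the basophil and mast cell genes 6 of 7 tested fell (677 and 693 to 382 and 395 TPM), of the conventional dendritic cell genes 4 of 9 fell and 1 rose (597 and 627 to 345 and 324 TPM), and of the plasmacytoid dendritic cell genes 2 of 5 fell (39.7 and 43.7 to 24.96 and 23.1 TPM). Of 12 monocyte and macrophage genes 2 fell and 2 rose (2199.5 and 2171 to 1921 and 1957 TPM), of 10 erythroid genes 4 fell (2036 and 2126 to 1586 and 1623 TPM), and of 8 T and NK cell genes 1 rose (16.3 and 16.9 to 17.5 and 16.5 TPM). Of 9 progenitor genes 2 fell.
Among 12 neutrophil maturation genes 5 rose and 3 fell: the late genes Cxcr2, Retnlg, Il1r2, Mmp8 and Cd101 rose, and the granule genes Camp, Ltf and Ngp fell. In HSCPs with Mdivi-1 the sums were also lower for neutrophil maturation (95687 to 86524 TPM), B cell (80.1 to 49.8 TPM), megakaryocyte (354 to 176 TPM), conventional dendritic cell (1210.4 to 728 TPM), plasmacytoid dendritic cell (46.3 to 35.0 TPM), basophil and mast cell genes (395 to 317 TPM), T and NK cell (28.4 to 13.6 TPM) and monocyte and macrophage genes (1660.2 to 1542 TPM), and higher for erythroid (3719.6 to 3801 TPM) and progenitor genes (14444 to 15464 TPM). No marker was listed at 0 in a Ly6G+ library, and Klk1, Trac and Ncr1 were listed at 0 in the HSCP vehicle library. The part of these other cells, and of neutrophil maturation, in the members' changes was not tested.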

How the data were processed

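RNA was sequenced from 6 libraries of sorted mouse bone marrow cells. The deposited table holds 1 TPM column per library, made by the authors with kallisto after bcl2fastq and CASAVA 1.8 on build mm10, per the submitters' processing notes. The columns sum to 963243 to 979168 TPM. No source used here gives the kallisto version, transcript annotation, strand setting or transcript-to-gene step, and no library column went unmapped (0).

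TPM values are not counts, so limma 3.58.1 (R 4.3.3) was applied to log2(TPM + 1), using its trended, robust prior. Genes had to reach 1 TPM in 2 or more libraries of the comparison. P-values were adjusted over all such genes by Benjamini and Hochberg, with a threshold of 0.05. The added 1 TPM shrinks the changes of low genes. The Ly6G+ treatment comparison used the 4 Ly6G+ libraries, with residual degrees of freedom of 2. The population comparison used all 6 with treatment as a term, and the contrast of treatment changes used 4 group means. HSCPs, with 1 library per arm, had no test: a difference counts at 1.5-fold or more with a mean of at least 5 TPM. No library repeated another's values.

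The 49 members, their role groups, the pathway genes and the marker lists were chosen with earlier results of these data known, so no count here is independent evidence of direction. Any member could be named. Values per library are given for the Ifit, Oas, Mx, Ifitm and transcription factor groups and, in each other group, for the 2 largest changes past the threshold and the highest mean. Pathway genes were named where they passed in Ly6G+ cells, with Ifnar1, Ifnar2, Jak1, Tyk2 and Ifnb1 always; some pathway genes are not reported here. Promoters were printed for the 6 largest changes with a match among the main families, and for Ifitm1. Coordinates come from GENCODE M21 and the RefSeq windows, both on GRCm38. Shared sequence was measured as 31-base words in M21 transcripts.

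On simulated data of the same design, the Ly6G+ fit over 11775 genes recovered 64.2% of changes of 0.5, 97% of changes of 1 and 100% of changes of 2 on the log2 scale, with 9.8% of calls false. The contrast of treatment changes over 12338 genes recovered 11.9%, 64.2% and 97%. Changes were set only in genes with a mean of at least 5 TPM, with normal noise at each gene's fitted spread. The recovery therefore takes the spread between these libraries as true and does not cover lower genes such as Mx2.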

Additional observations from a re-analysis of the deposited data

How the results depend on the processing

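Of the 23 members that fell in Ly6G+ cells, 13 passed with no filter on low values. With neither trend nor robust prior 11 of the called members no longer passed. Mx2, which is not among the 23, then passed as lower (-0.65, adjusted p = 0.0423 in limma), which made 13 lower members. Leaving out 1 library gave 0 to 13, and 0 to 1 members higher. All 23 lay below 0 in every alternative run. Because the arms did not overlap in any of the 23, only the scalings could have turned a sign. After median-of-ratios scaling 2 members were higher (Ifitm1 and Trim30a). All genes called in that comparison, 789, became 218 with no filter, 346 without the prior settings, 325 with a replicate block and 22 to 279 without 1 library. The block uses the replicate numbers of the titles, and same-numbered libraries did not deviate together (r = -0.03 over 11775 genes), so they share only a number. It left 7 of the called members short of the threshold, among them Oasl1 (adjusted p = 0.0663). In HSCPs, 16 members past the fold became 9 with a pseudocount of 5 TPM, and 357 genes became 206, or 1218 with no filter. Between populations, 4 lower members became 2 after median-of-ratios scaling, and 40 higher members became 44. In the contrast of treatment changes, 0 calls became 1 and 6 with pseudocounts of 0.1 and 5 TPM, and 0 to 2 without 1 library.

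Signs turned for members near 0, and between populations also for Ifitm2, which was called lower at -0.35 in the values as deposited. In Ly6G+ cells these were Oas2 (0.005 after median-of-ratios scaling, and from -0.119 to 0.002 without 1 library), Parp9 (0.025, and -0.113 to 0.036), Ly6e (0.009, and -0.146 to 0.035) and the receptor gene Ifnar1 (0.057, 0.018 after upper-quartile scaling, and -0.024 to 0.011 without 1 library). Between populations they were Ifit2 (-0.076 without the HSCP vehicle library to 0.428 without the HSCP Mdivi-1 library), Ifitm2 (0.015 after median-of-ratios scaling), Ifi35 (0.293, 0.156 after upper-quartile scaling, and from -0.173 to 0.047 without the HSCP vehicle or Mdivi-1 library) and Ifi44 (-0.216 to 0.323 without the HSCP vehicle or Mdivi-1 library and -0.075 without Ly6G+ vehicle replicate 1). The cause was not tested. With 2 libraries per arm, 1 per HSCP arm and unknown depth, small changes are beyond these data.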
